A study of Populus trichocarpa with 378 samples.

Results

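Construct i15 was directed at 2 members of the 4-coumarate:CoA ligase family together, Ptr4CL3 and Ptr4CL5, and its transcriptomes were taken as the 6 libraries that the labels assign to it, of 378 libraries in the series. They came from 3 transgenic lines, with 1 library from line 1, 2 libraries from line 2 and 3 libraries from line 3. Each was compared with the 3 wildtype libraries of the same planting batch, batch 6, which holds 63 libraries in all. The wildtype and all transgenics were Populus trichocarpa of the genotype Nisqually-1, grown in a greenhouse and sampled at the same age, and RNA was taken from stem-differentiating xylem, the newly forming wood scraped from debarked stems. The i15 transgene was an RNA interference construct. The single knockdowns used beside it, a12 and a13 with 8 libraries each, were artificial microRNA constructs, each directed at either Ptr4CL3 or Ptr4CL5. All 3 constructs were driven by the xylem-specific promoter of Ptr4CL3, so that suppression was aimed at wood-forming cells, and wildtype trees carried no transgene. Every library was a pool of clonally propagated trees of 1 line, so pools of a line share a single transformation event, and the p-values below measure the spread between pools.

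The 4-coumarate:CoA ligases join coenzyme A to hydroxycinnamic acids such as 4-coumaric acid and caffeic acid. The resulting thioesters are the activated intermediates from which the monolignols, the alcohols polymerized into lignin, are made. In P. trichocarpa xylem the Ptr4CL3 and Ptr4CL5 proteins are known to assemble into a complex with each other, and both are part of the monolignol pathway of wood formation. The transcripts in the count table carry only genome identifiers, none of which matched the gene table used for names, so the levels of Ptr4CL3 and Ptr4CL5, of the other monolignol genes and of xylem, phloem or leaf markers are not reported here. The labels of the knockdown and of the tissue were therefore not checked against those genes, and no function is given to any identifier below.

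The i15 libraries held between 8.00 and 14.1 M counts and the wildtype libraries 8.75, 16.8 and 22.9 M. The mean total was 10.4 ± 2.31 M in i15 (SD, n = 6) and 16.2 ± 7.12 M in wildtype (SD, n = 3), and the totals overlapped (exact two-sided permutation test, p = 0.0833, where 84 arrangements allow no p below 0.0119). A mean of 31472 genes had at least 1 count in i15 and 31566 in wildtype. The 10 most abundant genes took 5.31% of the counts in i15 and 4.42% in wildtype, and a mean of 1706 genes in i15 and 1581 in wildtype were enough to hold 50% of the counts. The same permutation test gave p = 0.845, 0.405 and 0.417 for these 3 values (adjusted p = 0.845, 0.521 and 0.521 over 5 values compared), so neither the number of genes detected nor the concentration of the counts in a few genes was shown to differ.

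All 6 i15 transcriptomes stood apart from wildtype. The distance of a library is given here as the root mean square of its log2 differences from the wildtype mean over 25281 genes that averaged 1 CPM or more (CPM, the usual scaling of counts to library size) in batch 6. The distance was 1.30 in the library of line 1. In line 2 it was 1.47 in pool 1 and 1.00 in pool 2. In line 3 it was 1.92, 2.21 and 1.68 in pools 1, 2 and 3. The 3 wildtype libraries lay at 0.330, 0.224 and 0.243 from a mean that includes them, so their distances are small in part by construction. The i15 mean was 1.60 ± 0.433 (SD, n = 6), and the 3 pools of line 3 were the farthest from wildtype among the 6. The i15 libraries were shallow for the batch, and of the shallow libraries of other constructs the lowest, of i53 with 7.02 M counts, lay at 0.572, one of i24 with 8.59 M at 0.570, and one of i21 with 8.29 M at 2.06.

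**Figure D1:**
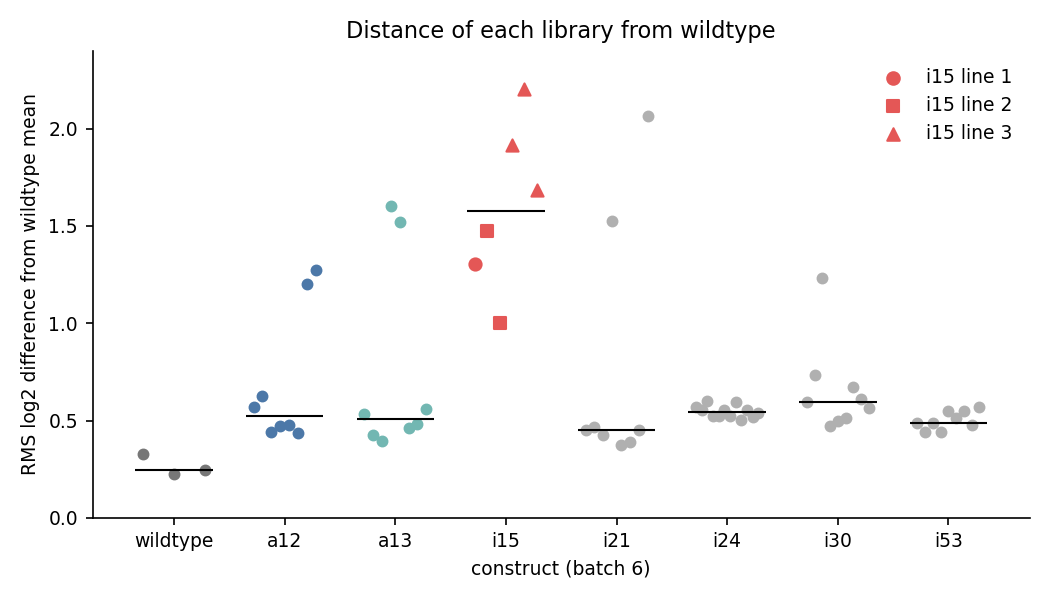
Root mean square log2 difference of each library of batch 6 from the wildtype mean (vertical axis), by construct (horizontal axis), with one point per library and a line at the median of each group; the 6 i15 libraries are marked by line. The i15 libraries sit between 1.00 and 2.21, and among the other transgenics 2 libraries each of a12, a13 and i21 and 1 of i30 reach that range.

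Distances within the range of i15 were also seen in a few other libraries of batch 6. Of the 16 libraries of the single knockdowns, 4 lay at or above the lowest i15 library: 1.20 and 1.27 in pools 2 and 3 of line a12-10, and 1.60 and 1.52 in both pools of line a13-6. The remaining pool of line a12-10 lay at 0.437. Of the 38 libraries of the 4 constructs directed at other genes, 3 did so, at 1.52 and 2.06 in a pool each of lines i21-6 and i21-8 and at 1.23 in a pool of line i30-1. Other pools of lines i21-6 and i21-8 lay between 0.374 and 0.451. All 12 libraries of i24 and all 9 of i53 lay between 0.439 and 0.601. What sets these libraries apart was not tested. In the batch, i15 is the only construct in which every library lay at 1.00 or more, but that limit is the lowest i15 value itself.

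Most of the transcriptome differed between i15 and wildtype. Of 26808 genes tested by edgeR's quasi-likelihood test with Benjamini-Hochberg adjustment, 15066 (56.2%) differed at an adjusted p under 0.05. Of these, 8127 genes (30.3%) were higher and 6939 genes (25.9%) lower in i15. The median log2 fold change over all genes tested was 0.03, with the central 50% of genes between -0.68 and 0.76. In all, 14725 genes (54.9%) had all 6 i15 libraries outside the range of the 3 wildtype libraries, with 7287 genes (27.2%) above and 7438 genes (27.7%) below. Of the genes that passed the test, 6940 of those that rose and 6554 of those that fell had no such overlap. In bulk tissue, a change in the number of cells of a type and a change in RNA per cell cannot be told apart.

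**Figure D2:**
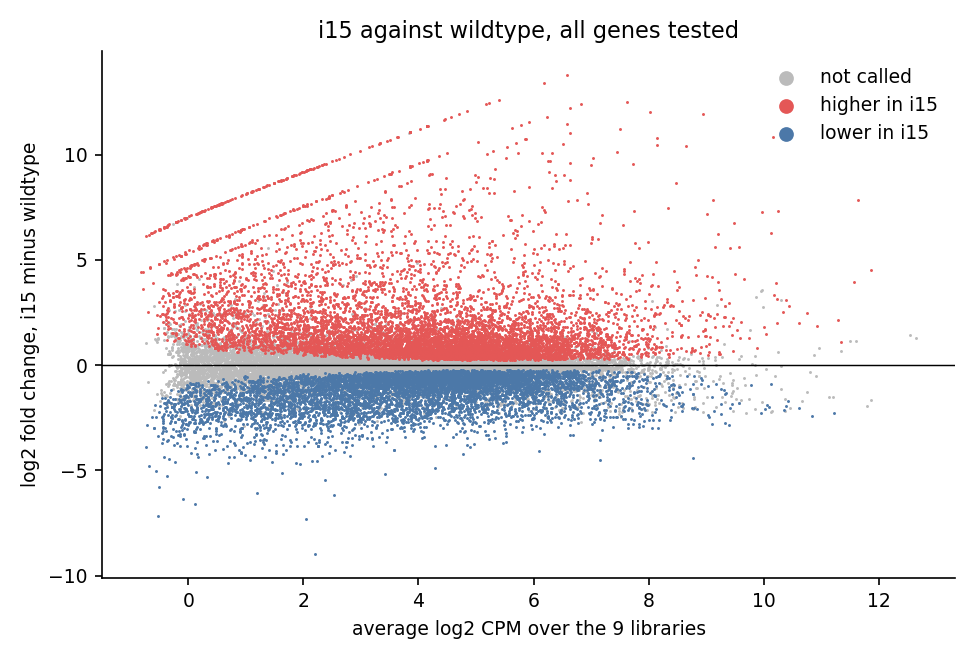
Log2 fold change of i15 over wildtype (vertical axis) against the average log2 CPM over the 9 libraries (horizontal axis) for the 26808 genes tested, with genes past an adjusted p of 0.05 coloured by direction. Rises reach further from 0 than falls, and the slanted rows of points at the upper left are genes with few or no counts in wildtype, whose fitted fold change depends on a small constant that edgeR adds.

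With the 6 libraries in 1 group, large changes were more often rises than falls, but this did not hold in line 3. At 2-fold or more, 4923 genes rose and 3853 fell. At 4-fold or more the counts were 2531 and 1392, and at 8-fold or more 1519 and 249. At 32-fold or more 685 genes rose and 15 fell, or 621 and 14 when genes without a count in 1 of the groups were set at the smallest fold that a floor of 3 counts over that group allows. The 5th percentile of the log2 fold changes was -2.06 and the 95th percentile 3.30. In single libraries, the genes at least 4-fold below the wildtype mean outnumbered those above it in the 3 pools of line 3, with 3052 against 2154, 4308 against 2272 and 2348 against 2017. In line 1 there were 992 below and 1560 above, and in line 2 there were 1317 and 315 below against 1710 and 988 above. Among the genes that changed at least 4-fold in the test, 2170 of those that rose and 1369 of those that fell had all 6 i15 libraries outside the wildtype range.

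With genes grouped by their mean over the 9 libraries, rises outnumbered falls at every level of expression from 1 CPM upward. That mean includes the 6 i15 libraries, so a gene's own rise lifts its level and a fall lowers it. The counts by level are therefore given as a description. Among 10089 genes with a mean of 1 to 10 CPM over the 9 libraries, 2660 rose and 2409 fell. Among 13699 genes at 10 to 100 CPM, 4520 rose and 3770 fell. Among 1805 genes at 100 to 1000 CPM, 658 rose and 470 fell, with 207 and 97 of them past 4-fold. Of the 59 genes at 1000 CPM or more, 20 rose and 10 fell, and 15 and 5 of them changed at least 4-fold. Below 1 CPM, 269 of 1156 genes rose and 280 fell.

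The sets of most abundant transcripts differed between wildtype and i15. Of 186 genes with a mean of 500 CPM or more in wildtype, 82 fell in i15, 37 of them at least 4-fold, and 6 rose, 1 of them at least 4-fold. Of 168 genes at that level in i15, 100 rose, 63 of them at least 4-fold, and 10 fell; 7 of the 168 had a mean under 10 CPM in wildtype. Each set was chosen by its level in 1 of the groups, which favours that direction, and both counts are given as a description.

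The share of a library's counts held by the genes that rose or fell at least 4-fold follows the order of the distances. The genes that rose held 1.55 to 1.85% of the counts in the wildtype libraries. In i15 they held 12.8% in line 1, 16.5 and 7.28% in the pools of line 2, and 21.9, 25.4 and 18.7% in the pools of line 3. The genes that fell held 9.81 to 10.6% of the counts in wildtype. Their share in i15 was 2.52% in line 1, 2.27 and 4.48% in line 2, and 0.671, 0.368 and 1.31% in line 3. These genes were chosen for their change in the same libraries, and 3 of the 6 libraries are of line 3, so the size of the shift and the order of the libraries are both a description only.

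**Figure D3:**
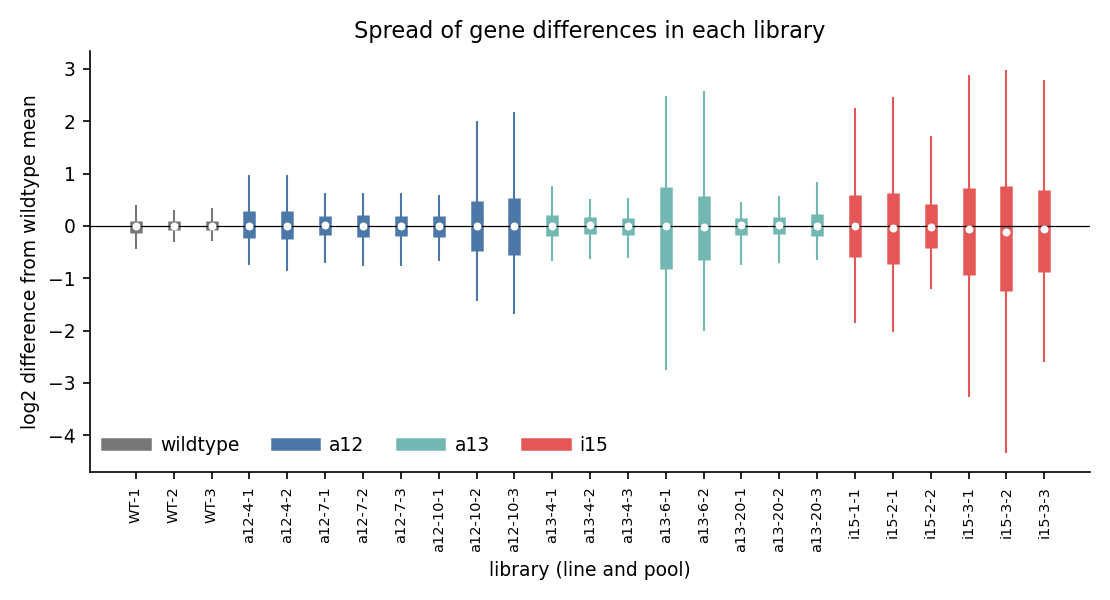
Log2 difference of genes from the wildtype mean (vertical axis) in each library of wildtype, a12, a13 and i15 (horizontal axis, named by line and pool), over the genes with at least 1 CPM on average in batch 6; thick bars span the 25th to the 75th percentile, thin lines the 5th to the 95th, and white dots mark the median. In pool 2 of line 3 the 5th percentile lies at -4.34 and the 95th at 2.98, against -1.20 and 1.73 in pool 2 of line 2.

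Of the genes tested, 180 had no count in any wildtype library, and 175 of these were higher in i15. The only gene tested with no count in i15 was lower. Such genes enter the test only through the other group, so their direction was close to fixed in advance. Absence also had to hold in 3 wildtype libraries but in 6 i15 libraries, so the numbers for wildtype and i15, here and below, cannot be compared. Among all genes, 2257 had no count in wildtype and some in i15, and 959 the reverse. With a stricter limit in every library, 15 genes had 0 counts in the 3 wildtype libraries and at least 1 CPM in all 6 i15 libraries, and 1 gene showed the reverse. That limit is set by the weakest library, pool 2 of line 2, and leaves out both risen genes named below, which lay under 1 CPM there. The 3 wildtype libraries together held 48.5 M counts, so that 0 counts among them allow a level of up to 0.0625 CPM, a limit that covers counting error only. None of the 15 was silent in wildtype xylem at large: all 15 had a count in some of the 15 wildtype libraries of batches 1 to 5, 12 of them at 1 CPM or more. All 15 also reached 1 CPM in some a12 or a13 library.

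The rule for naming genes took those past the test with all 6 i15 libraries on one side of wildtype, the same sign in every line and at least 10 CPM on average in the higher group. It was met by 5048 genes that rose and 4836 that fell, and the pair with the largest fitted fold change in each direction is described.

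Potri.007G111700 had the largest fitted rise, although without pool 1 of line 3 the fitted log2 fold change was 13.21 for it and 13.28 for Potri.019G011000. No count of it was found in the 3 wildtype libraries. In i15 it reached 16.9 CPM in line 1, 76.0 and 0.974 CPM in pools 1 and 2 of line 2, and 388, 246 and 133 CPM in pools 1, 2 and 3 of line 3. The naming rule required that the groups not overlap, and the lowest i15 library held only 10 counts. The i15 mean was 144 ± 149 CPM (SD, n = 6), and the level over the pooled i15 counts was at least 2229-fold higher than the wildtype limit (edgeR, adjusted p = 0.0102). Pool 1 of line 3 gave 4537 of the 8809 counts, and without it the bound was 1326-fold. By line, the adjusted p was 0.0604, 0.0308 and 0.00524 for lines 1, 2 and 3.

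Potri.019G011000, next in order with all libraries, was also without a count in wildtype. It lay at 22.5 CPM in line 1, at 106 and 0.584 CPM in line 2, the lower value from 6 counts, and at 158, 238 and 132 CPM in line 3. The mean was 109 ± 88.2 CPM (SD, n = 6), at least 1608-fold above the wildtype limit over pooled counts (edgeR, adjusted p = 0.00826). The same pool of line 2 was lowest for both genes and the 3 pools of line 3 were highest. The adjusted p was 0.0630, 0.0329 and 0.00768 for lines 1, 2 and 3.

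Potri.004G019400 had the largest fall. The wildtype libraries held it at 11.2, 17.8 and 9.94 CPM, from 620 counts, while the 6 i15 libraries together held 1 count, in pool 3 of line 3. Wildtype thus exceeded i15 by a ratio of 817, with a 95% interval from counting alone of 146 to 32307. Its fitted log2 fold change was -8.97 (edgeR, adjusted p = 1.76e-04), and it passed the test in each line (adjusted p = 0.00699, 0.00277 and 3.74e-04). A standard error of 0.53 was derived from the fold change and the F value of the test. It is not an error of the fit itself and is narrower than the counting interval above.

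Potri.011G041300 lay at 15.9, 12.8 and 6.10 CPM in wildtype. In i15 it had 1 count in line 1, 1 count in pool 1 of line 2, 2 counts in pool 3 of line 3 and none in the other pools. The ratio of wildtype to i15 was 160, with a counting interval of 62.1 to 590. The log2 fold change was -7.30, with a standard error of 0.60 derived in the same way (edgeR, adjusted p = 2.79e-04). Each line passed the test (adjusted p = 0.0145, 0.00501 and 5.24e-04).

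**Figure D4:**
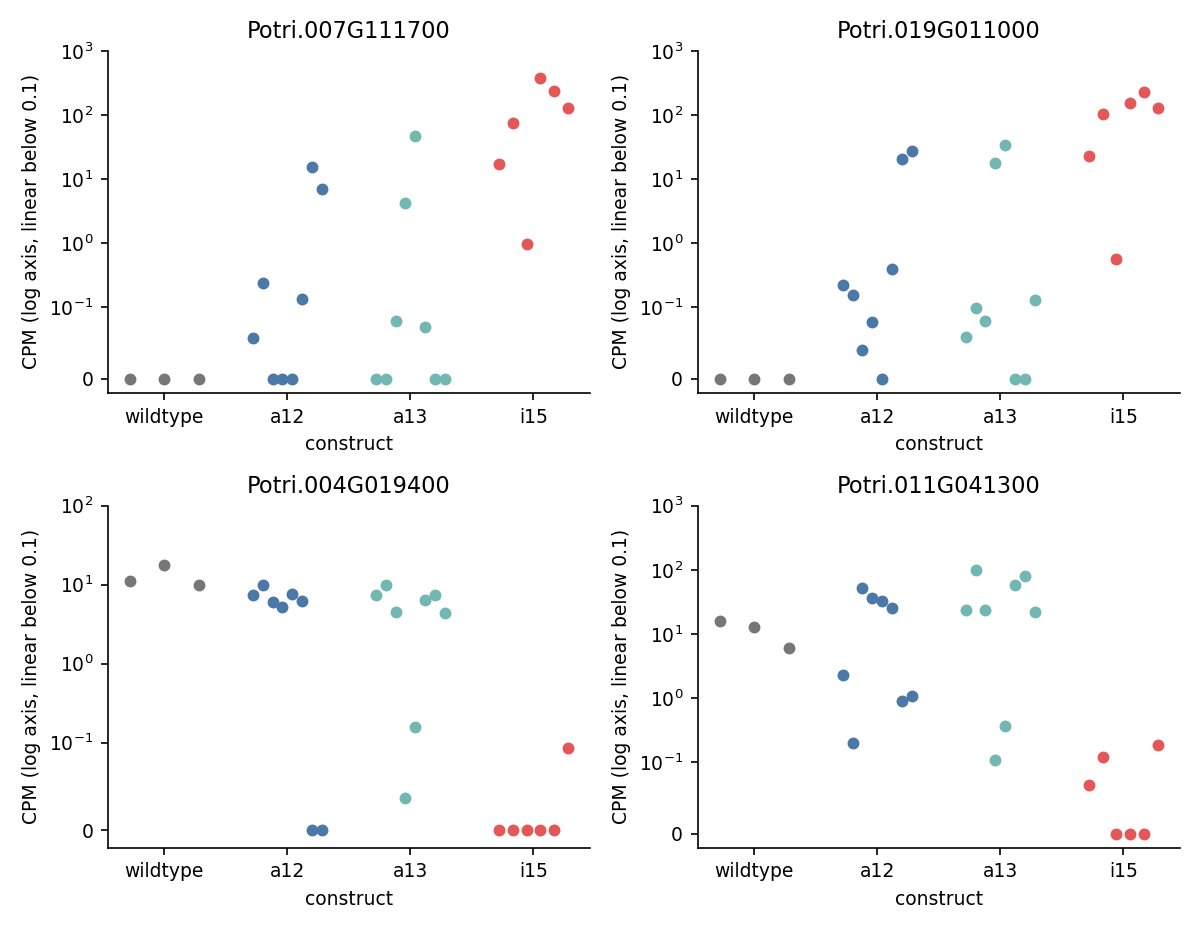
Level of the 4 named genes in CPM (vertical axis, logarithmic above 0.1 and linear below) in each library of wildtype, a12, a13 and i15 (horizontal axis), scaled over batch 6, with one point per library. As the naming rule requires, the i15 points lie above all 3 wildtype points in the upper panels and below them in the lower panels. In all 4 panels, 2 libraries each of a12 and a13 lie toward i15.

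These 4 genes also lay away from wildtype in the single knockdown libraries that stood apart. With scaling over batch 6, Potri.007G111700 lay at 15.5 and 7.04 CPM in pools 2 and 3 of line a12-10 and at 4.17 and 47.2 CPM in line a13-6, and at most at 0.236 CPM in the other 12 libraries of a12 and a13. For Potri.019G011000 the same 4 libraries had 20.9, 27.1, 17.7 and 33.8 CPM, against at most 0.398 CPM in the other 12. Potri.004G019400 had no count in the 2 pools of a12-10 and 0.0366 and 0.158 CPM in a13-6, against 4.35 to 9.97 CPM in the other 12. Potri.011G041300 was less ordered, with 0.886 and 1.07 CPM in the 2 pools of a12-10, 0.110 and 0.368 CPM in a13-6, and 0.197 to 98.8 CPM in the other 12. Compared with a12 and a13 together, i15 differed in all 4 genes, by log2 fold changes of 5.01 (adjusted p = 0.00324), 4.08 (0.00887), -7.79 (7.85e-04) and -8.58 (8.33e-04) in the order above (edgeR). The genes were chosen for their change in the same i15 libraries, which favours a difference here too, so these values are a description.

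Neither risen gene was particular to i15. Among the 354 other transgenic libraries of the series, scaled by library totals, Potri.007G111700 reached 1 CPM in 37 libraries, with a maximum of 1622 CPM, and Potri.019G011000 in 44, with a maximum of 1185 CPM. In batch 6, the library of i21-8 that stood apart held them at 536 and 123 CPM. Of the 18 wildtype libraries of all batches, 2 and 1 reached 1 CPM. The genes that fell were at 1 CPM or more in 244 and 257 of the 354 libraries and in 10 and 14 of the 18 wildtype libraries. Low levels of them were thus also seen outside i15. Potri.011G041300 had no count in the 3 wildtype libraries of batch 3. Potri.004G019400 reached at most 0.943 CPM there and 0.374 CPM in wildtype of batch 4. With scaling over batch 6, the libraries of i21-6 and i21-8 that stood apart held Potri.004G019400 at 0 and 0.314 CPM and Potri.011G041300 at 0.159 and 0.314 CPM.

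The 3 lines differed from wildtype to unequal extents. Over 28733 genes tested with a coefficient for each line, line 1 differed from wildtype in 5344 genes (18.6%), line 2 in 7651 (26.6%) and line 3 in 18048 (62.8%) by edgeR. In line 1, 3260 genes (11.3%) rose and 2084 (7.25%) fell. In line 2, 4642 (16.2%) rose and 3009 (10.5%) fell. In line 3, 9171 (31.9%) rose and 8877 (30.9%) fell, and changes of at least 4-fold were evenly split there, with 3486 rises and 3433 falls. In line 1 there were 1424 such rises and 593 falls, and in line 2 there were 1637 and 439. The number of libraries also rises from 1 to 3 over these lines. Line 1 has no spread of its own and was assumed to vary like the other libraries of the fit, wildtype included. Wildtype varied least, with a biological coefficient of variation of 0.155 against 0.388 in line 2 and 0.335 in line 3. The median absolute log2 fold change, which does not depend on a threshold, was 0.66 in line 1, 0.59 in line 2 and 0.94 in line 3. Noise raises this measure, more so with fewer libraries, so the value of line 1, from 1 library, cannot be ranked above that of line 2. The counts of lines 1 and 2 rested on each wildtype library: without wildtype pool 1, 2 or 3, edgeR called 2000, 1016 or 1106 genes in line 1 and 3281, 2641 or 2597 in line 2. DESeq2 called 8156 genes in line 1. The split by direction in line 1 also moved, from 61.0% of the called genes higher by edgeR to 51.5% by DESeq2 (4204 higher and 3952 lower) and to 77.6, 84.7 and 82.9% without wildtype pool 1, 2 or 3. In line 2 it was 60.7%, 54.9% by DESeq2 and 71.1 to 71.7% without a wildtype pool.

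Changes shared by the lines went the same way. In all 3 lines 2843 genes rose and 1739 fell, and 9 genes passed the test in opposite directions in a pair of lines. In line 3 alone 10008 genes passed, in line 2 alone 199 and in line 1 alone 102, and 10350 passed in no line. The lines share the 3 wildtype libraries, so these counts are not independent of each other.

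**Figure D5:**
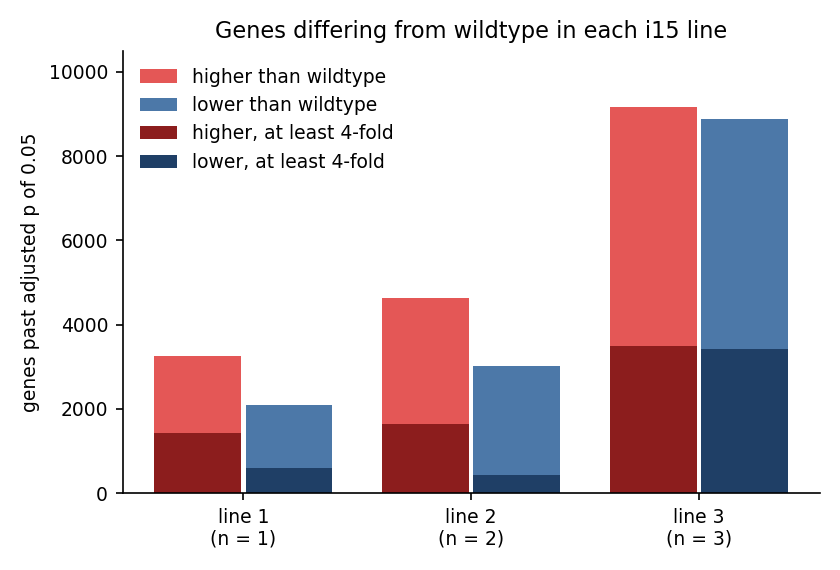
Number of genes past an adjusted p of 0.05 against wildtype (vertical axis) in each i15 line (horizontal axis, with the number of libraries), higher or lower than wildtype, with the part that changed at least 4-fold in a darker shade. Line 3 has 9171 higher and 8877 lower genes, and lines 1 and 2 have more higher than lower genes.

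The difference between lines was itself hard to resolve gene by gene. In the test of all 3 lines together, edgeR called 0 genes, although 5782 had an unadjusted p under 0.05, and a DESeq2 likelihood ratio test called 3152. Line 3 against line 2 gave 35 genes (0.122%) by edgeR, 2 higher (0.00696%) and 33 lower (0.115%) in line 3, with 7373 at an unadjusted p under 0.05, and 3686 by DESeq2, of which 876 were higher and 2810 lower. With lines 2 and 3 as the only lines in the fit, edgeR called 675 genes. Both tools thus gave more genes lower than higher in line 3, and the number depends on the tool. As a description across the 25281 genes, which are not independent and share each library's depth, Pearson's r of log2 CPM was 0.910 to 0.960 for the 4 pairs of pools within a line, 0.741 to 0.960 for the 11 pairs between lines, 0.542 to 0.888 for i15 with wildtype and 0.971 to 0.988 within wildtype. Spread between replicates was larger in i15 than in wildtype, with a biological coefficient of variation of 0.435 over the 6 i15 libraries, 0.335 within line 3, 0.388 within line 2 and 0.155 within wildtype.

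The double knockdown also differed from the single knockdowns in a large part of the genes. In a direct test over 28879 genes, i15 differed from the mean of a12 and a13 in 17221 genes (59.6%), with 8283 (28.7%) higher and 8938 (30.9%) lower in i15. Against a12 alone 15687 genes (54.3%) differed, and against a13 alone 14101 (48.8%). Construct type differs along with the targets, since i15 is an RNA interference construct and the other 2 are artificial microRNAs, and these cannot be told apart.

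The single lines were not alike in this comparison. Of 29398 genes tested, i15 differed from lines a12-7, a13-20 and a13-4 in 19047 (64.8%), 18765 (63.8%) and 18371 (62.5%), from line a12-4 in 13350 (45.4%) and from line a12-10 in 7331 (24.9%). From line a13-6 it differed in 49 genes (0.167%), 4 higher (0.0136%) and 45 lower (0.153%) in i15, with 2215 at an unadjusted p under 0.05 (edgeR). Averaged by line, the distance from wildtype was 1.30, 1.24 and 1.94 in i15 lines 1, 2 and 3, and 0.970, 0.598, 0.463, 0.450, 1.56 and 0.500 in lines a12-10, a12-4, a12-7, a13-4, a13-6 and a13-20. The mean over lines was 1.49 ± 0.386 for i15 (SD, n = 3) and 0.757 ± 0.439 for the single knockdowns (SD, n = 6). This difference did not pass an exact two-sided permutation test that doubles the smaller tail (p = 0.0714, with 0.0238 the smallest p for 84 arrangements). Line a13-6 lay within the range of the i15 lines and the other 5 below it.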

How the data were processed

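RNA-seq counts of 41334 genes in 378 libraries were used as deposited. The authors made TruSeq libraries and read them on an Illumina GAIIx instrument. Reads were aligned by Bowtie and TopHat against version v3.0 of the P. trichocarpa genome, and BedTools turned the alignments into gene counts, which the authors deposited without normalization. How reads shared by near-identical or overlapping genes were counted, and whether strand was used, is not given in the sources used here. The columns outside the labelled samples numbered 0, and no 2 libraries were identical.

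Groups came from the labels. The tests of i15 against wildtype, of each line, among lines and against a12 and a13 used R 4.3.3 with edgeR 4.0.16 (filterByExpr, TMM, glmQLFit, glmQLFTest, Benjamini-Hochberg adjustment, threshold 0.05); CPM values are TMM-scaled unless stated. DESeq2 1.42.0 was an alternative, with other scalings, filters, sums by line, a pool number block and left-out libraries. The permutation test of distances by line used SciPy 1.17.1 in Python 3.11.15, which doubles the smaller tail (smallest p 0.0238). The tests of library values used another two-sided definition (smallest p 0.0119), so their p-values are not on the same scale. The scripts were run on simulated data with few changed genes and the same spread in every group. The present data differ from this in both respects, so the simulation does not bear on the calls above. A group at 0 was given a floor of 3 counts; intervals are exact binomial at 95% and cover counting error only. Depth was 8.00 to 22.9 M counts per library in the main comparison.

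Genes were named by the rule of largest fitted fold change among those past the test, with all 6 i15 libraries outside the wildtype range, the same sign in each line and at least 10 CPM in the higher group. The members, lists and tests were chosen with earlier results of these data known. Of 34621 genes in the reference table of assembly P.trichocarpa_v4.1, 0 matched an identifier, so at most 2 identifiers were printed for each direction, and the planned lists of monolignol genes and tissue markers were not run. A column of a12 has pool number 2 in the count table and 3 in the labels, and entered only through its construct and line.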

Additional observations from a re-analysis of the deposited data

Results flagged for a closer look

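Dixon's test was applied to 24 sets of values in i15, a12 and a13, and chance marks about 1 in 20 sets of normally distributed values. That rate does not hold for sets of CPM with many values at or near 0. In 3 of the 24 sets, all of CPM of named genes, a library stood off from the others. Potri.007G111700 lay at 15.5 CPM in pool 2 of line a12-10 and at 47.2 CPM in pool 2 of line a13-6, each the highest of 8 libraries. Potri.004G019400 lay at 0.0937 CPM in pool 3 of i15 line 3, which is 1 count where the other 5 libraries had none. Such a set passes the test at any count, so this flag was fixed in advance.

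Effects against the shared wildtype differed by a direct test between line 3 and line 2 of i15 in 35 genes, between i15 and the single knockdowns together in 17221 genes, between i15 and a12 in 15687 and between i15 and a13 in 14101 (edgeR, adjusted p under 0.05).

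Among libraries of batch 6 outside these comparisons, all 38 lay farther from the wildtype mean than any wildtype library, whose own distances are lowered because they enter that mean. A pool of line i21-6 lay at 1.52, a pool of line i21-8 at 2.06 and a pool of line i30-1 at 1.23, at or above the lowest i15 library. Why these 3 differ from other pools of their lines was not tested.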

How the results depend on the processing

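The count of genes differing between i15 and wildtype, 15066, stayed within 1.5 times under DESeq2, other scalings, no filter, sums by line and without any line. It was 9617 of 15555 genes tested with a minimum mean of 10 CPM, which tests fewer genes, and 8776 with a minimum of 2-fold. Leaving out each library gave 10629 to 16949. Correlations of deviations were -0.0359 to 0.0459 over 5 same-numbered pairs of an i15 and a wildtype pool. The 2 pools of line 2 deviate as mirror images by construction (0.0227 and -0.0227 with wildtype pool 1), so the pairs are not independent. Whether the pool numbers pair the samples was therefore not settled. With the pool number as a replicate block 12386 genes differed.

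Counts by line were less stable. Line 1 against wildtype gave 5344 genes, 8156 by DESeq2 (51.5% of them higher, against 61.0%) and 1016 to 2000 when a wildtype library was left out: 2000 without wildtype pool 1, 1016 without pool 2 and 1106 without pool 3. Line 2 gave 7651, and 2597 to 3281 in the same way: 3281, 2641 and 2597. Line 3 gave 18048 and 14804 to 15647. Line 3 against line 2 gave 35 genes, 14 with library totals as the only scaling and 3686 by DESeq2. The test among lines gave 0 genes, 3152 by DESeq2's likelihood ratio test and 675 with lines 2 and 3 alone. The cause of these differences was not tested.

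Against a12 and a13 together, 17221 genes differed, 14756 to 18219 without each i15 library and 21224 without lines a12-10 and a13-6. Single lines as the comparator gave 49 for a13-6 and 7331 for a12-10. The last 2 settings were chosen after seeing the data. In the 77 pairs of a named gene and a setting that gave a value, direction and call were kept, with adjusted p up to 0.0368. The genes were named for passing the test in the same i15 and wildtype libraries, which favours both, so this is a description. Neither named gene that fell had a value with a minimum mean of 10 CPM. Potri.019G011000 had no value without line 3, where it was not among the genes tested. The fitted log2 fold change of Potri.007G111700 was 11.73 without line 3, and that of Potri.004G019400 was -10.35 without pool 3 of line 3. Settings for the gene lists were not run. With 3 wildtype libraries and 1 to 3 pools per line, differences among lines are the least precise of these results.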
